A study of Sus scrofa domesticus with 11 samples.

Results

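DHRS4 and the other genes that carry, store, oxidise, reduce and degrade vitamin A were described in liver RNA of preterm Yorkshire piglets fed by vein. The list named 9 genes, and 8 of them were found by symbol among the 22029 genes of the deposited table: DHRS4, DHRS3, RDH10, RDH16, ALDH1A1, RBP4, LRAT and CYP26A1. Each had a single identifier. RARB was not found by its symbol. The row whose identifier belongs to RARB in the reference list is given separately. DHRS4 heads the list as chosen by its fold change and adjusted p between the groups in these same libraries, and the remaining genes were taken for their place in the same pathway with that result in view. The values of DHRS4 are therefore a description and carry no test.

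There were 5 libraries from piglets given SEFA-6179, a compound known by its code name, at 48 mg/kg, and 6 libraries from piglets given MCT, the vehicle control, at 3 ml/kg, the same volume. MCT is a medium-chain triglyceride oil, as known from the study. All piglets received parenteral nutrition and were sampled at day of life 15. Age at birth, sex, litter and any batch were not given in the sources used here. Each library was taken as 1 animal, and the p-values measure the spread between these libraries.

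Vitamin A leaves the hepatocyte as retinol bound to RBP4 and is stored as retinyl ester after LRAT has joined it to a fatty acid, in the liver mainly in stellate cells. Retinol dehydrogenases such as RDH10 and RDH16 oxidise retinol to retinal, reductases such as DHRS3 and DHRS4 turn retinal back into retinol, and retinal dehydrogenases such as ALDH1A1 make retinoic acid. Retinoic acid acts through the nuclear receptors RARA, RARB and RARG with RXR partners, and CYP26A1 degrades it. DHRS3, RARB and CYP26A1 are known in several species as genes that retinoic acid itself induces.

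The SEFA-6179 libraries held 16821201 to 19215097 counts each and the MCT libraries 15974977 to 23416071. The 16 hepatocyte markers summed to 126394 to 232023 CPM (counts scaled to library size with edgeR's TMM factors) with SEFA-6179 and 98612 to 209013 CPM in MCT livers, and all 16 had reads in every library. MCT replicate 5 lay far from the others: its score on principal component 1 was 83.1, and the other 10 libraries had scores of -30.8 to 14.7.

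SEFA-6179 livers held more DHRS4 mRNA than MCT livers in every library, by 2.71-fold. RDH16, DHRS3 and RDH10 lay higher in SEFA-6179 by smaller amounts that did not pass edgeR's test over all genes. ALDH1A1, RBP4 and LRAT overlapped widely between the groups. CYP26A1 had reads in 4 of 5 SEFA-6179 libraries and in 0 of 6 MCT libraries, almost all in 1 library.

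DHRS4 encodes an NADPH-dependent short-chain dehydrogenase/reductase, in pig a peroxisomal enzyme that reduces retinal and other carbonyl compounds. The gene lies on chromosome 7 from 75242121 to 75255600 on the minus strand in the coordinates of the deposited table, whose genome build was not given in the sources used here. SEFA-6179 libraries 1 to 5 had 1666, 1008, 831, 1452 and 827 CPM of DHRS4. The MCT libraries lay at 332 to 605 CPM with a median of 390.3 CPM. The groups were fully separate, and SEFA-6179 replicates 1 and 4 lay well above the other 3. The mean was 1157 ± 382 CPM in SEFA-6179 livers (SD, n = 5) and 427 ± 113 CPM in MCT livers (SD, n = 6), and the log2 fold change was 1.44 ± 0.24 (SE). The transcript took 0.0769% to 0.174% of all counts of a library with SEFA-6179 and 0.0328% to 0.0610% with MCT. No other gene of the table overlapped DHRS4, and the RefSeq gene list of the pig (Sscrofa11.1) holds 1 gene whose symbol starts with DHRS4, so copies such as those of other mammals were not among the named genes. Whether reads of an unannotated copy were counted here was not tested.

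In the authors' deposited table DHRS4 had an adjusted p below 0.05, as did 1.16% of all rows, and DESeq2's Wald test also called it. With edgeR's quasi-likelihood test, DHRS4 was 1 of 30 genes called among 13671 tested at an adjusted p below 0.05 (0.219%). Of the 9 named genes, 7 were tested, and 1 of these 7, DHRS4, was called. Nothing is read from that count, since the list was built around DHRS4. When each library was left out in turn, the DHRS4 call was kept without SEFA-6179 replicate 2 or 3 and without MCT replicate 5 or 6, and it was lost without each of the other 7 libraries. Its log2 fold change ran from 1.26, without SEFA-6179 replicate 1, to 1.56, without MCT replicate 4.

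**Figure D1:**
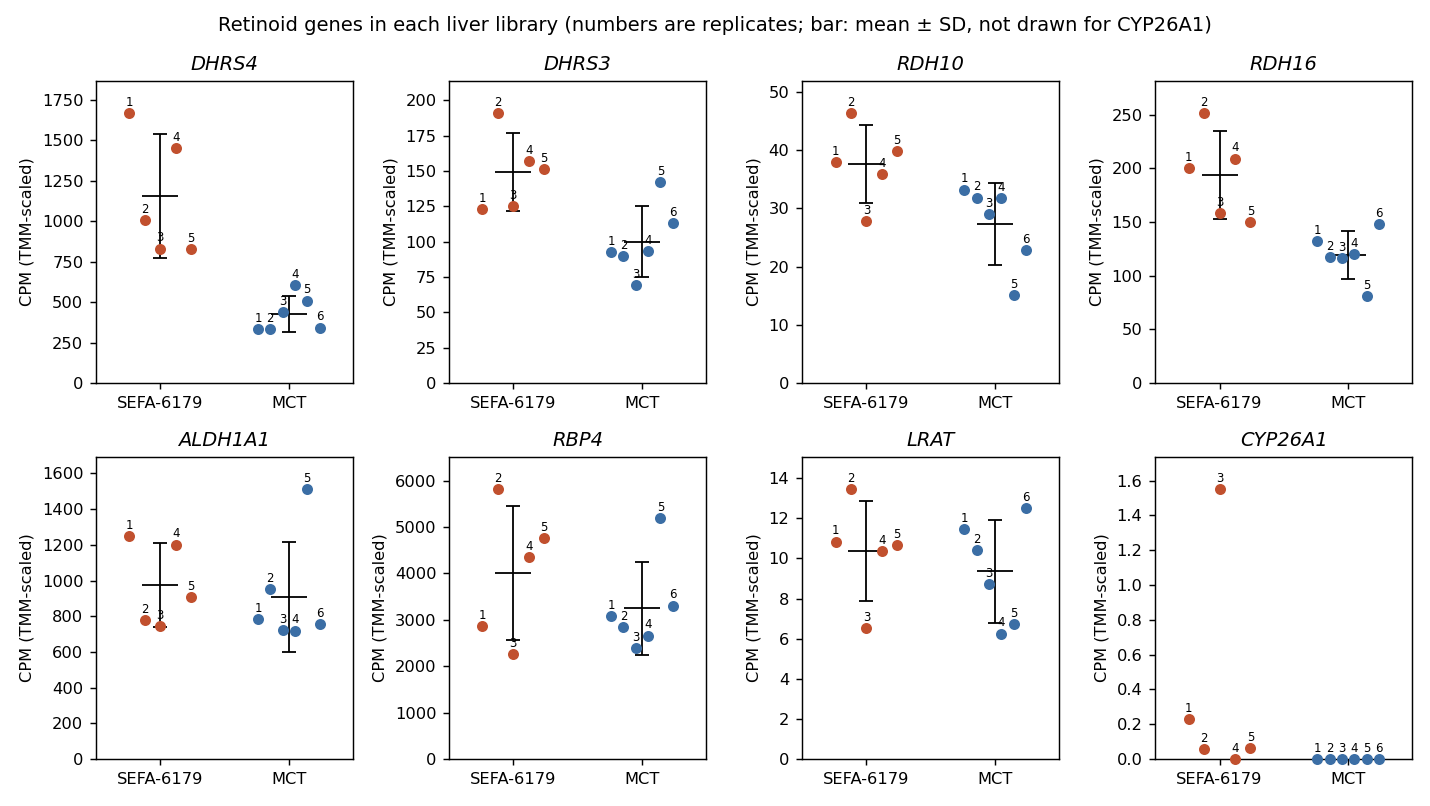
CPM of the 8 retinoid genes found by name, one point per liver library, with the SEFA-6179 libraries on the left (n = 5) and the MCT libraries on the right (n = 6). Numbers beside the points are replicates, and bars are the mean ± SD (none for CYP26A1). The groups are apart for DHRS4 and, narrowly, for RDH16, and MCT replicate 5 is the highest point of its group for DHRS3, ALDH1A1 and RBP4.

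Among the other reductases and dehydrogenases, RDH16 came nearest to DHRS4. RDH16, a microsomal retinol dehydrogenase that also acts on steroids, lies on chromosome 5 from 22228057 to 22292434. SEFA-6179 libraries 1 to 5 had 200.4, 251, 158, 209 and 150.2 CPM of RDH16. In MCT livers RDH16 had 81.2 to 148 CPM with a median of 119 CPM. The groups did not overlap, though the lowest SEFA-6179 library, replicate 5, lay just above the highest MCT library, replicate 6. Such a separation with SEFA-6179 on top was seen in 0.673% of the tested genes. RDH16 had a log2 fold change of 0.70 ± 0.18 (SE, 95% interval 0.32 to 1.08), and edgeR's adjusted p of 0.142 did not pass. In the authors' deposited table the adjusted p of RDH16 was 0.0192, where 1.16% of all rows are below 0.05, and DESeq2's Wald test on the filtered genes gave 0.0151. Over 21 alternatives the adjusted p ran from 0.0151 to 0.292 and passed in 1. RDH16 overlaps SDR9C7, a related gene on the same strand with a mean count of 18.7.

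DHRS3, the retinal reductase of the endoplasmic reticulum, was counted at 123, 191, 125, 157 and 151 CPM in SEFA-6179 libraries 1 to 5. In MCT livers DHRS3 had 69.2 to 142 CPM with a median of 93.1 CPM. All SEFA-6179 libraries lay above the MCT median and 3 of 5 above every MCT library, the exception in MCT being replicate 5. The log2 fold change of DHRS3 was 0.58 ± 0.18 (SE, 95% interval 0.18 to 0.97; edgeR adjusted p = 0.253). Without MCT replicate 5 it was 0.71 with an edgeR adjusted p of 0.112.

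RDH10, which carries out the retinol oxidation needed by the embryo in mice, was counted at 38.0, 46.3, 27.8, 35.9 and 39.9 CPM in SEFA-6179 libraries 1 to 5. In MCT livers RDH10 had 15.2 to 33.2 CPM with a median of 30.4 CPM. The low end of MCT was replicate 5, and 4 of 5 SEFA-6179 libraries exceeded the highest MCT library. RDH10 had a log2 fold change of 0.46 ± 0.20 (SE, 95% interval 0.04 to 0.88; edgeR adjusted p = 0.407). Without MCT replicate 5 the log2 fold change was 0.34.

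ALDH1A1, the cytosolic retinal dehydrogenase, had 1247, 779, 742, 1201 and 907 CPM in SEFA-6179 libraries 1 to 5. In MCT livers ALDH1A1 had 719 to 1512 CPM with a median of 769 CPM. The highest library of all was MCT replicate 5, and the groups overlapped throughout. The log2 fold change of ALDH1A1 was 0.10 ± 0.24 (SE, 95% interval -0.40 to 0.61; edgeR adjusted p = 0.907). SEFA-6179 replicates 1 and 4, the highest for DHRS4, were also the highest of their group for ALDH1A1. The ratio of DHRS4 to ALDH1A1 in deposited FPKM (fragments scaled to gene length and library size) was 5.12 to 7.50 with SEFA-6179 and 1.89 to 4.72 with MCT, without overlap. This ratio holds DHRS4, which was chosen by its difference between the groups, so its separation is not a further result.

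RBP4, the plasma carrier of retinol, had 2868, 5817, 2262, 4349 and 4755 CPM in SEFA-6179 libraries 1 to 5. In MCT livers RBP4 had 2393 to 5198 CPM with a median of 2965 CPM. The lowest library of all and the highest were both SEFA-6179 libraries, replicates 3 and 2. RBP4 had a log2 fold change of 0.30 ± 0.27 (SE, 95% interval -0.28 to 0.89; edgeR adjusted p = 0.738). TTR, which holds RBP4 in plasma and belongs to the wider transport list, was chosen for mention after its values were seen, at 2520 ± 1113 CPM in SEFA-6179 livers and 1922 ± 474 CPM in MCT livers (edgeR adjusted p = 0.669).

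LRAT, the enzyme of retinyl ester storage, was counted at 10.8, 13.5, 6.51, 10.4 and 10.7 CPM in SEFA-6179 libraries 1 to 5. MCT libraries ran from 6.26 to 12.5 CPM with a median of 9.57 CPM. The ranges were nearly the same. The log2 fold change of LRAT was 0.15 ± 0.22 (SE, 95% interval -0.33 to 0.63; edgeR adjusted p = 0.863). Of 21 tested markers of stellate cells and fibroblasts, 17 had a log2 fold change below 0, and the 22 markers in the table summed to 891 to 1290 CPM in SEFA-6179 livers and 1071 to 1421 CPM in MCT livers, and 20 of the 22 had reads in every library. Their part in the LRAT value was not tested. In bulk tissue, fewer cells of a type and less RNA per cell cannot be told apart.

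CYP26A1, the main retinoic acid hydroxylase of liver, lies on chromosome 14 from 104563195 to 104567097, and its counts were too low for the test. SEFA-6179 libraries 1 to 5 had 4, 1, 30, 0 and 1 reads, and all 6 MCT libraries had 0 reads. SEFA-6179 replicate 3 alone held 83.3% of the 36 reads. A count of 0 allows up to 3 reads, or 0.130 to 0.176 CPM in an MCT library, and such limits cover counting error only. Pooled over the group, CYP26A1 was at 0.412 CPM in SEFA-6179 livers, 16.4 times the pooled limit of 0.0251 CPM in MCT livers. No error was put on the SEFA-6179 level and pooling leaves out the spread between animals, so this is not a smallest fold. Without SEFA-6179 replicate 3, which was left out after its count was seen, 6 reads remained and the pooled level was 3.52 times that limit. The replicate with the most CYP26A1 reads had the lowest SEFA-6179 levels of RBP4, LRAT, RDH10 and ALDH1A1, but not of DHRS4, DHRS3 or RDH16. This was seen in 1 library after the values were known, and a link was not tested.

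The row that the reference list pairs with RARB, a retinoic acid receptor, has no symbol in the deposited table and is marked there as a pseudogene. SEFA-6179 libraries 1 to 5 had 11.9, 9.99, 12.7, 7.50 and 10.1 CPM in this row. MCT libraries ran from 5.28, in replicate 5, to 13.8 CPM with a median of 9.04 CPM. The groups overlapped throughout, with a log2 fold change of 0.12 ± 0.23 (SE; edgeR adjusted p = 0.896). The row overlaps 6 other genes, among them TOP2B on the opposite strand, whose mean count was 844, and whether reads were counted by strand was not given in the sources used here.

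**Figure D2:**
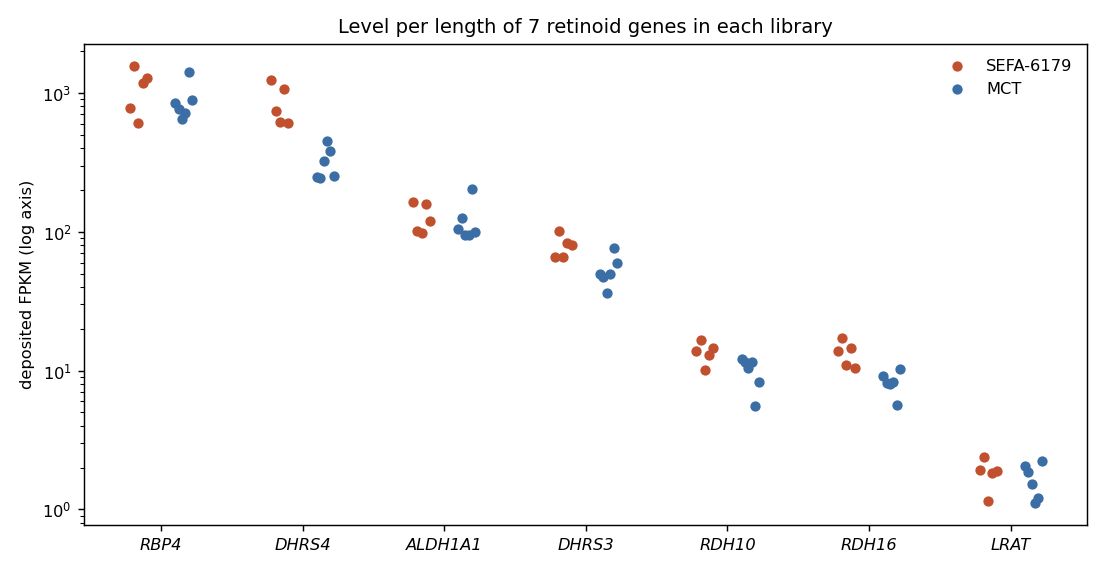
Deposited FPKM on a log axis for 7 retinoid genes, ordered by their MCT mean, with SEFA-6179 libraries left and MCT libraries right at each gene. RBP4 and DHRS4 sit at the top, their ranges overlap with SEFA-6179 and not with MCT, and LRAT is the lowest of those shown.

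Per length, on the deposited FPKM scale, the same order of mean levels held in both groups. RBP4 led at 1085 ± 387 FPKM with SEFA-6179 and 882 ± 280 FPKM with MCT. DHRS4 followed at 855 ± 284 FPKM with SEFA-6179 and 316 ± 83.9 FPKM with MCT (SD, n = 5 and n = 6). RBP4 exceeded DHRS4 in 3 of 5 SEFA-6179 libraries and in 6 of 6 MCT libraries. ALDH1A1 came next at 128 ± 31.3 FPKM with SEFA-6179 and 120 ± 41.6 FPKM with MCT, and was above DHRS3 in every library. DHRS3 had 79.0 ± 14.4 FPKM with SEFA-6179 and 53.2 ± 13.5 FPKM with MCT. RDH10 had 13.6 ± 2.40 FPKM with SEFA-6179 and 9.88 ± 2.53 FPKM with MCT. RDH16 was at 13.4 ± 2.80 FPKM with SEFA-6179 and 8.25 ± 1.51 FPKM with MCT, and these neighbours overlapped in both groups. The deposited length of RDH16, 14321 bases, is far longer than the 1337 bases of DHRS4 and lowers its FPKM. LRAT stood at 1.84 ± 0.44 FPKM with SEFA-6179 and 1.66 ± 0.45 FPKM with MCT. Of the summed FPKM of DHRS4, DHRS3, RDH10 and RDH16, DHRS4 made up 88.3 ± 3.54% with SEFA-6179 and 81.0 ± 4.20% with MCT. The ranges overlapped, at 84.7% to 93.0% with SEFA-6179 and 76.4% to 86.6% with MCT. The share holds the DHRS4 difference by which the gene was chosen and depends on the deposited gene lengths.

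**Figure D3:**
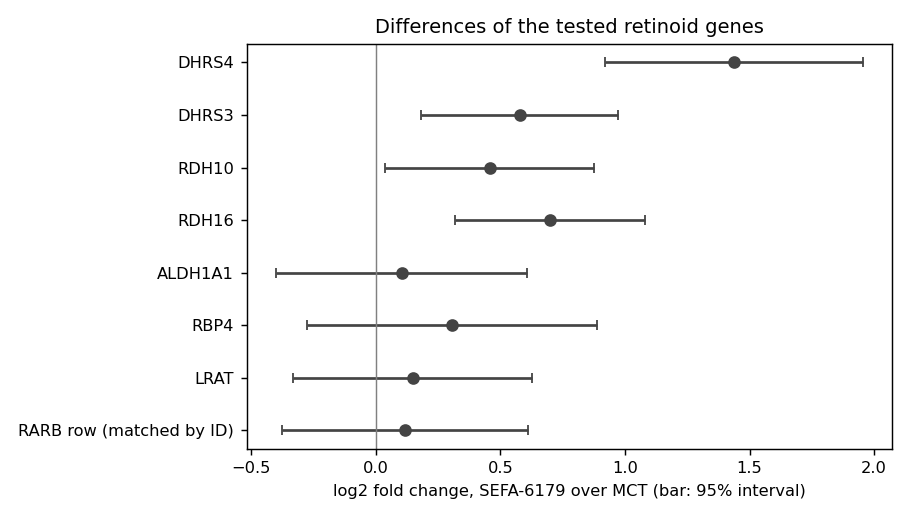
Log2 fold change of SEFA-6179 over MCT with its 95% interval, from the edgeR fit over all genes, for the 7 tested genes of the list and the RARB row. DHRS4, which was chosen by this contrast, is farthest from 0 at 1.44, and the intervals of ALDH1A1, RBP4, LRAT and the RARB row include 0. The intervals are not adjusted for the number of genes, and RDH16, DHRS3 and RDH10 did not pass edgeR's test over all genes.

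All 7 tested genes lay above 0 on the log2 scale, their median was 0.46, and of all tested genes 49.8% lay above 0 with a median of -0.0015. Of the 7, 4 had an unadjusted p below 0.05 with SEFA-6179 higher, where 5.24% of tested genes did. These were DHRS4, RDH16, DHRS3 and RDH10. Both shares and the median hold DHRS4, which was chosen by its difference between the groups, so its part was fixed beforehand. The remaining genes were listed with the DHRS4 result known, and nothing is read from these shares. The libraries differed among themselves too. SEFA-6179 replicate 2 was the highest of its group for 5 of the 7 genes and SEFA-6179 replicate 3 the lowest for 4. MCT replicate 5 was the highest of its group for DHRS3, ALDH1A1 and RBP4 and the lowest for RDH10 and RDH16.

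**Figure D4:**
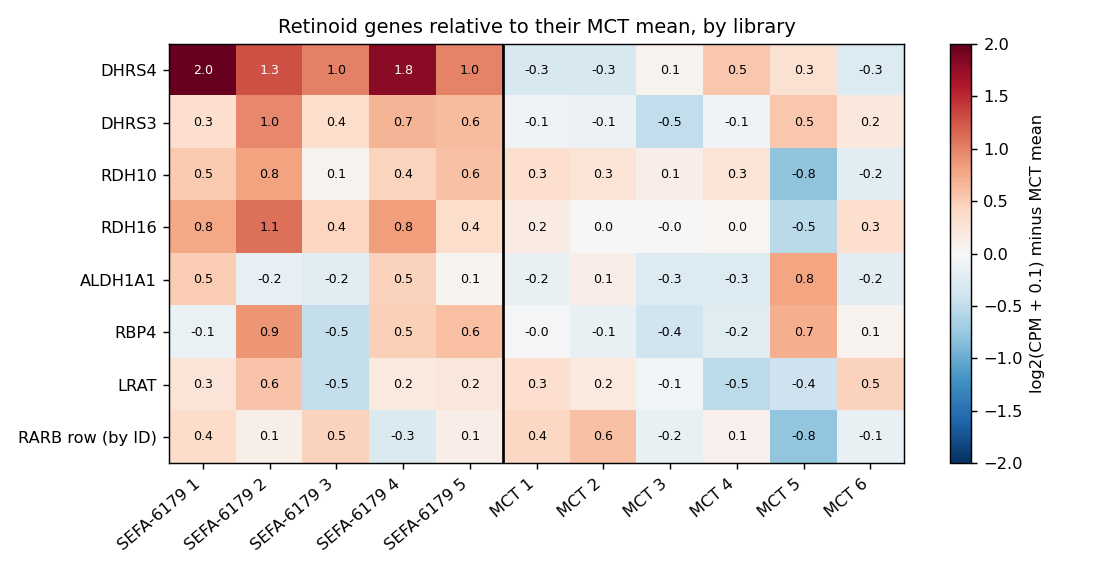
Difference of each library's log2(CPM + 0.1) from the MCT mean, by gene (rows) and library (columns), SEFA-6179 left of the black line and MCT right of it. DHRS4 is 0.99 to 2.00 above the MCT mean in the SEFA-6179 libraries, and the MCT replicate 5 column runs both ways.

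The wider pathway was read from 11 lists drawn up by function, with earlier results known, which together hold 107 tested genes. One of the 107, CROT, was called by edgeR, or 0.935% of them, against 0.219% of all tested genes. An unadjusted p below 0.05 was reached by 24 of the 107, against 10.8% of all tested genes. DESeq2 called 5 and limma 2, where DESeq2 called 2.06% of the genes to which it gave an adjusted p and limma 0.454% of all tested genes. The counts of the single lists are to be read beside these shares. CROT, the peroxisomal carnitine acyltransferase for medium-chain fatty acids, rose to 189 ± 39.9 CPM in SEFA-6179 livers, against 89.8 ± 14.7 CPM in MCT livers (edgeR adjusted p = 0.0273). The CROT call was lost when SEFA-6179 replicate 5, MCT replicate 1 or MCT replicate 4 was left out, each giving 0 calls in the lists. It was also lost without both SEFA-6179 replicate 4 and MCT replicate 5, with a block for the replicate number, and with EIF1AY, a Y-linked gene, in the model. CROT stood among 22 tested peroxisomal matrix enzymes, the organelle of DHRS4. Of them 20 lay above 0 on the log2 scale, and the median of the 22 was 0.31. Of these 22, 6 had an unadjusted p below 0.05, all higher with SEFA-6179, against 10.8% of all tested genes. DESeq2 called HAO2, HACL1 and CROT, and limma HACL1 and CROT. HACL1, which shortens 2-hydroxy and branched fatty acids, had 107 ± 22.7 CPM in SEFA-6179 livers and 62.3 ± 11.6 CPM in MCT livers, and HAO2, a hydroxy acid oxidase, 202 ± 31.3 CPM in SEFA-6179 livers and 129 ± 21.4 CPM in MCT livers, neither passing in edgeR (adjusted p = 0.0905 and 0.131). Of 13 tested genes of peroxisome biogenesis 7 lay above 0, with a median of 0.03. None of the 13 was called by edgeR, DESeq2 or limma, and 3 had an unadjusted p below 0.05, 2 higher and 1 lower with SEFA-6179.

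**Figure D5:**
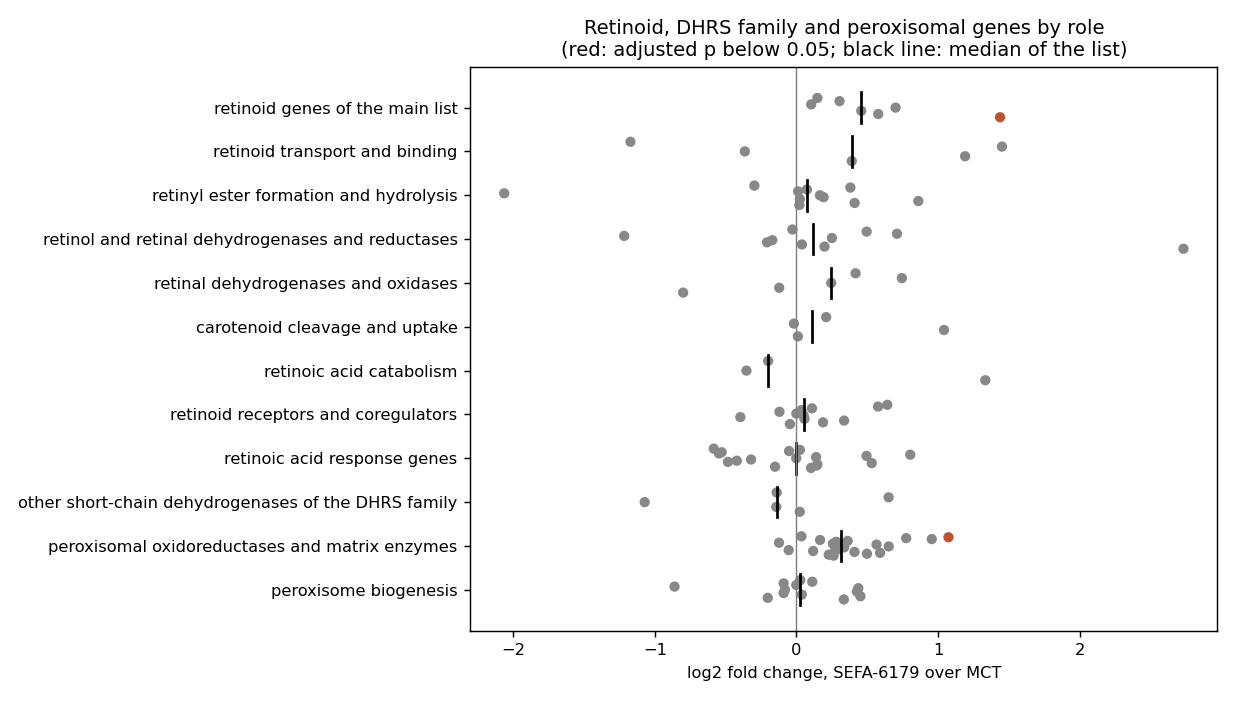
Log2 fold change of SEFA-6179 over MCT for each tested gene, by list, with red for an edgeR adjusted p below 0.05 and a black line at the median of each list. Peroxisomal matrix enzymes lie mostly right of 0, and genes of the retinoic acid response lie on both sides of it.

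Of 10 further tested retinol and retinal dehydrogenases and reductases, 6 lay above 0 and none was called by edgeR or limma. An unadjusted p below 0.05 was reached by 4 of the 10, 3 higher and 1 lower with SEFA-6179, against 10.8% of all tested genes. The lower one was DHRS7, a dehydrogenase of the endoplasmic reticulum chosen for mention after its values were seen, at 11.7 ± 5.56 CPM in SEFA-6179 livers and 27.2 ± 12.3 CPM in MCT livers (edgeR adjusted p = 0.325). ADH4, an alcohol dehydrogenase that oxidises retinol, had the smallest p. SEFA-6179 libraries 1 to 5 had 187, 325, 37.1, 413 and 650.4 CPM of ADH4, and MCT libraries ran from 14.2 to 86.5 CPM. The level of SEFA-6179 replicate 3 lay within the MCT range and the other 4 above it. The log2 fold change was 2.73 ± 0.69 (SE) with an edgeR adjusted p of 0.168, and DESeq2 called ADH4 as the 1 gene of this list. In the remaining DHRS family, with 5 tested genes, 2 lay above 0 and 3 below it, with a median of -0.14. None was called by edgeR or limma, and 2 had an unadjusted p below 0.05, 1 in each direction. DHRS11, the 1 gene that DESeq2 called, was at 156 ± 38.9 CPM in SEFA-6179 livers and 99.1 ± 12.2 CPM in MCT livers (edgeR adjusted p = 0.153). DHRS7C, chosen for mention after its values were seen, was at 0.826 ± 0.266 CPM in SEFA-6179 livers and 1.74 ± 0.593 CPM in MCT livers (edgeR adjusted p = 0.283). All SEFA-6179 values of DHRS7C were below all MCT values, a separation seen in 0.819% of the tested genes.

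The transport, storage, oxidation and catabolism lists had no call by edgeR, DESeq2 or limma. Among 5 tested transport and binding genes, 3 lay above 0 with a median of 0.39, and 2 had an unadjusted p below 0.05. Among 11 tested genes of retinyl ester formation and hydrolysis, 1 had an unadjusted p below 0.05. That was LPL, lipoprotein lipase, at 0.341 ± 0.399 CPM in SEFA-6179 livers and 1.48 ± 1.94 CPM in MCT livers, where MCT replicate 5 had 5.39 CPM. Among 5 retinal dehydrogenases and oxidases, 1 had an unadjusted p below 0.05, AOX1, aldehyde oxidase, at 142 ± 66.4 CPM in SEFA-6179 livers and 84.6 ± 23.6 CPM in MCT livers. The 4 tested carotenoid genes held 1 such gene, BCO2, which cleaves carotenoids in mitochondria, at 9.66 ± 3.59 CPM in SEFA-6179 livers and 4.68 ± 2.27 CPM in MCT livers (edgeR adjusted p = 0.301). The 3 tested genes of retinoic acid catabolism held 1, CYP26B1, a relative of CYP26A1, at 1.36 ± 0.57 CPM in SEFA-6179 livers and 0.534 ± 0.234 CPM in MCT livers (edgeR adjusted p = 0.283). Counts of CYP26B1 were low, at 4 to 33 reads in a library. For this gene, 4 of 5 SEFA-6179 libraries exceeded the highest MCT library, and replicate 4 did not.

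Of 12 tested receptors and coregulators 8 lay above 0 with a median of 0.05, none was called by edgeR, DESeq2 or limma, and 3 had an unadjusted p below 0.05, 2 higher and 1 lower with SEFA-6179. The lower one was NCOA1, a nuclear receptor coactivator, at 17.7 ± 1.81 CPM in SEFA-6179 livers and 23.3 ± 5.00 CPM in MCT livers (edgeR adjusted p = 0.376). PPARD, a nuclear receptor that can bind retinoic acid in some cells, had the smallest p, at 27.3 ± 9.56 CPM in SEFA-6179 livers and 17.5 ± 3.79 CPM in MCT livers (edgeR adjusted p = 0.286). NCOA1, RXRA and RARA were chosen for mention after their values were seen. RXRA, the main RXR of liver, had 250.2 ± 45.2 CPM in SEFA-6179 livers and 198 ± 27.5 CPM in MCT livers. RARA had 23.5 ± 2.58 CPM in SEFA-6179 livers and 24.2 ± 4.94 CPM in MCT livers. Of 17 tested genes known to respond to retinoic acid in some cells, 8 lay above 0 with a median of -0.0014, and 0 had an unadjusted p below 0.05 by edgeR or a call by edgeR, DESeq2 or limma. The smallest p of that list was that of FGF21, a liver hormone, at 15.5 ± 9.92 CPM in SEFA-6179 livers and 22.3 ± 5.65 CPM in MCT livers (edgeR adjusted p = 0.623).

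The genes whose log2 CPM followed DHRS4 most closely over the 11 libraries, among 11761 candidates, were SH3KBP1, HADHB, TFG, ACADL and MCTP1, with Pearson r from 0.87 to 0.91. These libraries share the difference between the groups, so r was also taken after removing each group's mean, as a description. SH3KBP1, an adaptor protein gene, then kept an r of 0.84 and MCTP1, a calcium-binding membrane protein gene, 0.32. HADHB, the thiolase subunit of the mitochondrial trifunctional protein, had 0.68, and ACADL, the long-chain acyl-CoA dehydrogenase, 0.48. With the group means removed the 5 closest were SCAMP2, SYP, NUDCD1, SH3KBP1 and TEFM, with r from 0.83 to 0.89. Among the list itself, r over all libraries was 0.70 for RDH16 and 0.64 for DHRS3, and 0.0063 and 0.0075 with the group means removed. For ALDH1A1 it was 0.38 over all libraries and 0.49 with the group means removed.

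Markers of the liver's cell types were summed beside these genes, and edgeR called none of them. The 11 tested cholangiocyte markers all lay below 0, with a median of -0.83, and summed to 187 to 294 CPM in SEFA-6179 livers and 211 to 520.3 CPM in MCT livers. DESeq2 called 4 of them, against 2.06% of its genes, and limma 1, against 0.454%. That 1 was CD24, at 3.39 ± 1.19 CPM in SEFA-6179 livers and 8.43 ± 1.97 CPM in MCT livers (edgeR adjusted p = 0.0539). The 15 endothelial markers all lay above 0, with a median of 0.34, and summed to 782 to 1291 CPM in SEFA-6179 livers and 621 to 1178 CPM in MCT livers. VWF, von Willebrand factor, had the smallest p of these, at 52.4 ± 7.94 CPM in SEFA-6179 livers and 35.8 ± 14.4 CPM in MCT livers. Of 16 hepatocyte markers 12 lay above 0, and TAT, tyrosine aminotransferase, was at 1044 ± 578 CPM in SEFA-6179 livers and 496 ± 280.5 CPM in MCT livers. COL1A2, a collagen chain of stellate cells and fibroblasts, was at 83.8 ± 16.6 CPM in SEFA-6179 livers and 135 ± 41.1 CPM in MCT livers (edgeR adjusted p = 0.225). Of 14 macrophage markers 10 lay above 0, with sums of 946 to 3802 CPM in SEFA-6179 livers and 1645 to 3030.0 CPM in MCT livers. VCAM1, an adhesion molecule, had the smallest p there, at 43.5 ± 14.0 CPM in SEFA-6179 livers and 75.2 ± 19.7 CPM in MCT livers. Of 13 T and NK cell markers 11 lay above 0, and KLRK1, an NK cell receptor, was at 3.28 ± 1.16 CPM in SEFA-6179 livers and 1.66 ± 0.554 CPM in MCT livers. Of 7 erythroid markers 1 lay above 0, HBB, a haemoglobin chain, at 337 ± 103 CPM in SEFA-6179 livers and 201 ± 107 CPM in MCT livers. All endothelial and macrophage markers of the table had reads in every library, as did 10 of 13 cholangiocyte, 13 of 14 T and NK cell and 8 of 10 erythroid markers. Listed markers without a row in the table were not analysed here. The part of these cell types in the values of DHRS4 and RDH16 was not tested.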

How the data were processed

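Liver RNA of 11 piglets was sequenced, and groups were taken from the sample titles. Per the file headers, the authors deposited a raw read count and an FPKM value per gene and library. A further deposited column, a normalized signal, equals the count divided by 1 factor per library. The authors' log2 fold change, p-value and adjusted p-value are deposited beside them. Tools named in the submitters' processing notes, with no role, were DESeq2 1.20.0, featureCounts 1.5.0-p3, StringTie 1.3.3b and HISAT2 2.0.5. Not given in the sources used here were build, annotation and strand setting.

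The table itself named 14022 genes, and a reference list matched by identifier named 779 more. No 2 libraries of a group agreed within sampling noise. The test on counts was that of edgeR 4.0.16 (R 4.3.3), after filterByExpr with its minimum count of 10 and TMM scaling: the robust quasi-likelihood test of SEFA-6179 against MCT, two-sided, with Benjamini-Hochberg adjustment over 13671 genes and a threshold of 0.05. Each standard error is the log2 fold change over the root of F. Levels are TMM-scaled CPM as mean ± SD. The fit was tested on simulated data first. Alternatives used DESeq2 1.42.0 and limma 3.58.1, and the limma fit on FPKM and the sums without 1 library were added after the data were seen. The listed genes and the pathway lists were chosen with earlier results of these data known. Named are all listed genes and, per pathway list, up to 4 genes past the threshold or the one with the smallest p, plus from each cell marker list the gene with the smallest p, and the 5 most like DHRS4 by each measure, among genes with a mean count of at least 10. Others are marked, and 2 genes that this rule names are not reported here.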

Additional observations from a re-analysis of the deposited data

Results flagged for a closer look

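Of 40 groups of libraries checked for 20 genes, 4 had a single library lying well away from its group. At 1 in 20, about 2 such groups would arise by chance if the groups were independent. The genes share the same libraries, so the groups are not independent and the 4 cannot be weighed against that number. CYP26A1 was at 1.55 CPM in SEFA-6179 replicate 3, against at most 0.227 CPM in the other SEFA-6179 libraries. MCT replicate 5 was the library set apart in the other 3. Its ALDH1A1 level was 1512 CPM against at most 953 CPM, its RBP4 level 5198 CPM against at most 3306 CPM, each set against the remaining MCT libraries, and its LPL level of 5.39 CPM was the highest of the 11 libraries. Without that library the log2 fold change was 0.31 for ALDH1A1 and 0.49 for RBP4, and neither passed (edgeR adjusted p = 0.555 and 0.462).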

How the results depend on the processing

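The DHRS4 log2 fold change lay between 1.26 and 1.56 over 21 alternatives and its adjusted p passed in 11 of them. The alternatives used the same libraries by which DHRS4 was chosen, so for DHRS4 they are a description and no test. The number of genes called, 30, was 276 by DESeq2, 62 by limma with library weights, 8 with the replicate block, 1 without both SEFA-6179 replicate 4 and MCT replicate 5, 6 with the level of EIF1AY, a Y-linked gene, in the model and 18 by limma on log2(FPKM + 0.1). Leaving out 1 library gave 0 to 53 calls, namely 0 when SEFA-6179 replicate 5 or MCT replicate 4 was dropped (1184 and 1258 genes at an unadjusted p below 0.05), 1 for MCT replicate 1, 9 for SEFA-6179 replicate 1 and for MCT replicate 2, 16 for MCT replicate 3 and 53 for SEFA-6179 replicate 3. In the 11 pathway lists the 1 call became 5 by DESeq2, 2 by limma with library weights, and 0 with the block, without those 2 libraries or with EIF1AY (20, 21 and 25 genes at an unadjusted p below 0.05 by edgeR). Leaving out 1 library gave 0 to 2. The cause was not tested. The sign turned for ALDH1A1 without SEFA-6179 replicate 1 (lowest -0.0047, highest 0.31 over the libraries left out) and for the RARB row without MCT replicate 5 (lowest -0.0078, highest 0.25). DHRS3, RDH10, RBP4 and LRAT kept their sign and did not pass in any of the 21. The replicate numbers were not taken as pairs, since same-numbered libraries correlated at -0.15 to 0.20 in their deviations and 1 of 5 SEFA-6179 libraries correlated best with its own number. Under the block DHRS4 had a log2 fold change of 1.36 (edgeR adjusted p = 0.134). Low counts limit CYP26A1, which was not fitted.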

Other observations

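The genes around DHRS4 were looked at after the values were seen. Within 100 kb of DHRS4 the table holds 11 other genes, of which 7 were tested, and none was called by edgeR or DESeq2 or had an unadjusted p below 0.05. Their log2 fold changes ran from -0.41 to 0.37. DCAF11, a ubiquitin ligase adaptor gene, had the highest, at 181 ± 45.4 CPM in SEFA-6179 livers and 140.1 ± 21.1 CPM in MCT livers (edgeR adjusted p = 0.481). PCK2, the mitochondrial phosphoenolpyruvate carboxykinase, averaged 756 ± 104 CPM in SEFA-6179 livers and 748 ± 108 CPM in MCT livers.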
